A study of Mus musculus with 36 samples.

Results

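The liver X receptors (LXRs) and genes of lipid handling tied to them were followed in mouse plasma cells, which are mature B lineage cells that secrete antibody. The 10 genes were the receptors Nr1h2 and Nr1h3, the exporters and transfer protein Abca1, Abcg1 and Pltp, the enzymes Scd1, Scd2 and Hsd3b7, the regulator Srebf1 and the ubiquitin ligase gene Mylip, out of 54203 genes in the deposited tables. They were chosen by name with earlier results on their read numbers across the 8 groups in view, so the levels and fold changes below are descriptions, and the p-values are not independent evidence on why these genes stand together. All 10 were found and all passed the filter on low counts in each fit.

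RNA was sequenced from 36 libraries of 2000 plasma cells each, sorted from C57/BL6 bone marrow as reporter-positive cells carrying the surface proteins CD138 and TACI, in a series on mouse models of multiple myeloma. Cohort D held Ccnd1 (4 libraries), Ikk2ca(D) (4), Ccnd1-Ikk2ca (6) and Control(D) (4). Cohort M held MMSET (4), Ikk2ca(M) (4), MMSET-Ikk2ca (6) and Control(M) (4). Each cohort thus asks what a transgene does alone and together with Ikk2ca. Ccnd1 encodes cyclin D1, MMSET is the histone methyltransferase gene Nsd2, and IKK2 is a kinase of the NF-kB pathway. The driver of the transgenes, what the controls carry, and the age of the animals are not given in the sources used here. Whether each library is a separate animal is not stated, so the p-values reflect spread among libraries, which may be technical.

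Libraries held 54.06 to 97.56 M estimated reads, and immunoglobulin genes took 43.8% to 72.9% of them. The remainder for other genes was 16.2 to 34.9 M reads. The transgenes matched the labels. Ccnd1 was at 257.8 to 982.7 CPM (counts per M reads, scaled over all 36 libraries) in the 2 groups that carry it, against at most 3.55 CPM in the others. Nsd2 was at 174.3 to 823.8 CPM in the MMSET groups, against at most 9.96 CPM in the others, and Ikbkb, which encodes IKK2, at 42.1 to 83.4 CPM in the Ikk2ca groups, against 10.7 to 39.0 CPM in the others. The summed level of 8 plasma cell markers was 7523 to 19494 CPM in Ccnd1-Ikk2ca, against 54145 to 99913 CPM in Control(D). It was 4431 to 6388 CPM in MMSET-Ikk2ca, against 31071 to 41705 CPM in Control(M). With 1 transgene it was 30333 to 119766 CPM in Ccnd1 and 17129 to 47487 CPM in Ikk2ca(D). In cohort M it was 6923 to 24012 CPM in MMSET and 6914 to 16407 CPM in Ikk2ca(M). Of these, only the Ccnd1 range overlapped that of its control. None of the 8 was called with 1 transgene against control, where 0.00653% to 0.649% of all genes were called. Of the 8, 4 fell and none rose in each of the double groups against control. Of all genes, 11.1% were called in Ccnd1-Ikk2ca and 6.91% in MMSET-Ikk2ca. Jchain, Mzb1 and Tnfrsf17 fell in both, Tnfrsf13b in Ccnd1-Ikk2ca and Xbp1 in MMSET-Ikk2ca. Jchain made up most of the control sums, with a median of 74576 CPM for Control(D) and 31705 CPM for Control(M). Sdc1, Irf4 and Prdm1 fell in neither. Their Control(D) medians were 379.2, 130.5 and 96.6 CPM, and 491.8, 135.3 and 72.9 CPM with both transgenes. In cohort M, these medians were 426.3, 108.7 and 87.1 CPM for Control(M), against 383.1, 124.0 and 49.5 CPM with both. The part of these falls and of the lower sums in the results below was not tested. In bulk samples, fewer cells of a type and less RNA per cell cannot be told apart.

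LXRs are nuclear receptors that bind oxysterols, oxidised forms of cholesterol, and pair with the retinoid X receptors on DNA. When bound by ligand they raise genes that carry cholesterol out of the cell and that make and desaturate fatty acids, and they raise Mylip, which encodes a ubiquitin ligase. The pathway is best known in macrophages and liver.

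LXR pairs classically bind direct repeats of a hexamer, AGGTCA or close forms, with 4 bases between them. Promoters of 7 members, 10 promoters in all, were present in the RefSeq table of GRCm38.p6, which runs from 250 bases before to 50 bases after each start. Abcg1, Scd1 and Scd2 were not in it. None of the 10 held the exact repeat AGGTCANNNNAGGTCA on either strand, which 14 of 32851 promoters (0.0426%) held. The form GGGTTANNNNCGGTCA was chosen after the promoters had been read. Its presence in members could thus be known beforehand, and nothing is read from how rare it is. Searched on both strands, it was present in 3 of the 32851 promoters (0.00913%), of which 2 belong to members, Abca1 and Srebf1. Both are shown because they carry that form, and Hsd3b7 because it is the only member promoter with a single hexamer AGGTCA or GGGTCA, which 27.5% of all promoters hold. Capitals mark the matched letters, on the printed strand as TGACCGNNNNTAACCC for Abca1 and Srebf1, and the spacer is in lower case. A match is a description of the letters and not a site of binding.
Abca1, chr4:53159846-53160145, minus strand: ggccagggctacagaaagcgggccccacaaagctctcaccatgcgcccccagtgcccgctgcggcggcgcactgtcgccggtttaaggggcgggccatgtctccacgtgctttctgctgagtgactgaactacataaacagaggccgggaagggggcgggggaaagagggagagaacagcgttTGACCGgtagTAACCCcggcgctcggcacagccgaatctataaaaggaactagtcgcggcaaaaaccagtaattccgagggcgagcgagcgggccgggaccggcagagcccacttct
Srebf1, chr11:60210422-60210721, minus strand: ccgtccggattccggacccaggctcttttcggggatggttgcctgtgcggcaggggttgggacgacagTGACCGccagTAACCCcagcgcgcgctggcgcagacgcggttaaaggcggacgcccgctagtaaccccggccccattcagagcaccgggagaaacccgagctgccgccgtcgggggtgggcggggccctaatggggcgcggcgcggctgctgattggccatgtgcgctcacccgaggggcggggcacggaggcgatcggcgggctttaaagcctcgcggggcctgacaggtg
Hsd3b7, chr7:127800359-127800658, plus strand: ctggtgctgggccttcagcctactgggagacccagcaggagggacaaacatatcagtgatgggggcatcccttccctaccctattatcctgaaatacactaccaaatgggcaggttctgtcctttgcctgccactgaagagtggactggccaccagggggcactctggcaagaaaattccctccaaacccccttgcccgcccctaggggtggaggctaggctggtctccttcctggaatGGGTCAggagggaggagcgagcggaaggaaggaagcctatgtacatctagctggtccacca
The match begins 67 bases before the start in Abca1 and 182 bases before it in Srebf1, and the Hsd3b7 hexamer 11 bases before. No match says only that these letters are not in this window.

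Per transcript length, in TPM (reads scaled by length and library), the receptor Nr1h2 had the highest median over the 36 libraries of the 10 members, at 7.34 TPM. Scd2 followed at 5.66, Abcg1 at 4.68, Hsd3b7 at 3.96 and Srebf1 at 3.32 TPM. Mylip (1.38 TPM), Scd1 (1.34 TPM), Abca1 (0.611 TPM) and Pltp (0.212 TPM) were lower, and Nr1h3 was lowest at 0.0392 TPM. The order differed between groups: in MMSET-Ikk2ca the mean was 10.1 TPM for Abcg1, 9.68 TPM for Scd2 and 8.41 TPM for Nr1h2, and in Control(D) it was 7.58 TPM for Nr1h2, 3.73 TPM for Scd1 and 1.94 TPM for Scd2.

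A gene is said to have risen or fallen when edgeR's quasi-likelihood test gave a Benjamini-Hochberg adjusted p under 0.05 over all genes of its fit. Against control, Abcg1 and Scd2 rose in each group with Ikk2ca, Hsd3b7 rose in all 3 transgenic groups of cohort M, Pltp fell in Ccnd1-Ikk2ca and Scd1 fell in MMSET-Ikk2ca. Abcg1 also rose in MMSET. In Ccnd1 against Control(D) 0 of the 10 were called, where 0.00653% of all genes were called, and 1 member had an unadjusted p under 0.05, while DESeq2 also called 0. In Ikk2ca(D) against Control(D) 2 of 10 were called (0.437% of all genes), and in Ccnd1-Ikk2ca against Control(D) 3 (11.1%). In cohort M, 2 of 10 were called in MMSET against Control(M) (0.649%), 3 in Ikk2ca(M) against Control(M) (0.649%) and 4 in MMSET-Ikk2ca against Control(M) (6.91%). The median log2 fold change of the 10 was 0.16, 0.70 and 0.23 in cohort D (Ccnd1, then Ikk2ca(D), then Ccnd1-Ikk2ca) and 0.34, 0.52 and 0.10 in cohort M (MMSET, then Ikk2ca(M), then the double group). Over all genes tested these medians lay between -0.008 and 0.021. The comparisons of a cohort share their control libraries, and since the genes were chosen on these contrasts, nothing is read from the counts.

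**Figure D1:**
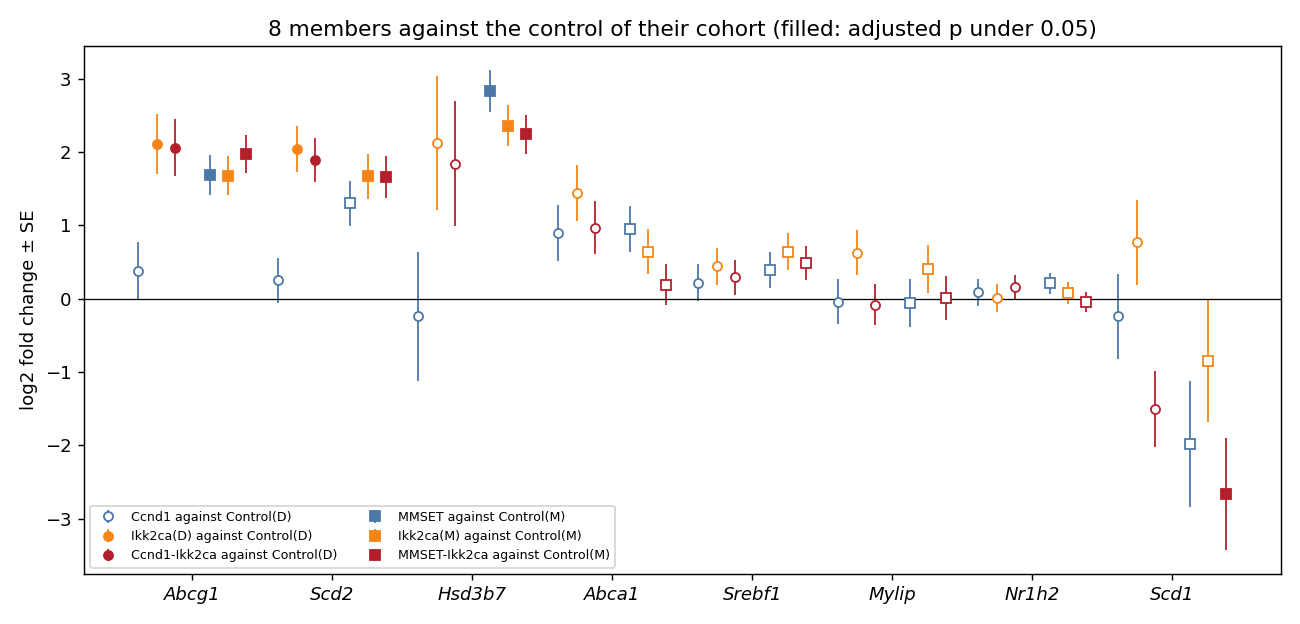
Log2 fold change with its SE (y axis) of 8 members (x axis) in the 6 comparisons with a control; circles are cohort D and squares cohort M, and filled symbols have an adjusted p under 0.05 (Pltp and Nr1h3, with groups at or near 0 reads, are not drawn). Abcg1 and Scd2 lie between 1.3 and 2.11 in every group but Ccnd1, where they are at 0.38 and 0.25.

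Neither receptor gene was called in a comparison. Nr1h2, which encodes LXR beta, averaged between 30.0 CPM in MMSET-Ikk2ca and 35.7 CPM in MMSET, and its single libraries ranged from 24.0 to 44.8 CPM. Its log2 fold changes against control lay between -0.04 (SE 0.134) in MMSET-Ikk2ca and 0.21 (SE 0.147) in MMSET. The group ranges of Nr1h2 overlapped in each comparison with a control.

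Nr1h3, which encodes LXR alpha, the form known from liver and macrophages, was close to undetected, with 0 to 92 reads per library. It had 0, 4, 32 and 45 reads in Ccnd1, 0, 9, 30 and 0 in Ikk2ca(D), 0, 14, 11, 0, 0 and 0 in Ccnd1-Ikk2ca, and 0, 63, 48 and 0 in Control(D). In cohort M it had 0, 0, 73 and 1 reads in MMSET, 0, 27, 56 and 60 in Ikk2ca(M), 17, 92, 0, 69, 0 and 0 in MMSET-Ikk2ca, and 41, 39, 37 and 92 in Control(M). Only the Control(M) libraries all had reads, and each transgenic group of cohort M held libraries within their range. Within a library the TPM of Nr1h3 was at most 0.0393 of that of Nr1h2.

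Abcg1, which encodes an exporter that hands cellular cholesterol to high-density lipoprotein, rose in 5 of the 6 comparisons with a control. In cohort D it had 10.1, 25.1, 21.5 and 52.1 CPM in Ccnd1 and 115.4, 111.1, 48.0 and 89.4 CPM in Ikk2ca(D). It had 55.0 to 124.7 CPM (median 84.8) in Ccnd1-Ikk2ca, against 17.1, 15.4, 20.3 and 31.0 CPM in Control(D). Every library of Ikk2ca(D) and of Ccnd1-Ikk2ca stood above every Control(D) library, while Ccnd1 overlapped Control(D). The log2 fold change was 2.11 (SE 0.405, adjusted p = 0.025) in Ikk2ca(D) and 2.06 (SE 0.384, adjusted p = 0.00262) in Ccnd1-Ikk2ca, and 0.38 (SE 0.39, adjusted p = 1) in Ccnd1.

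The call of Abcg1 in Ikk2ca(D) depended on single libraries. Without Control(D) 1, 2 or 3, or Ikk2ca(D) 2 or 4, its adjusted p lay between 0.0504 and 0.102. Xist, transcribed from the inactive X chromosome, was over 10 CPM in 4 of 4 Ikk2ca(D) libraries, against 1 of 4 in Control(D), and with Xist as a covariate the log2 fold change was 1.92 with an adjusted p of 0.197. The part of Xist status in this result was not tested further.

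In cohort M, Abcg1 had 48.6, 106.3, 177.0 and 79.5 CPM in MMSET and 109.2, 102.5, 73.4 and 123.3 CPM in Ikk2ca(M). MMSET-Ikk2ca libraries had 107.2 to 145.2 CPM (median 129.7), against 34.7, 28.2, 34.2 and 29.4 CPM in Control(M). All 14 transgenic libraries stood above the 4 controls. The log2 fold changes were 1.69 (SE 0.27, adjusted p = 0.0047) in MMSET, 1.68 (SE 0.27, adjusted p = 0.00513) in Ikk2ca(M) and 1.98 (SE 0.259, adjusted p = 0.000163) in MMSET-Ikk2ca. Ranked by mean, the 5 groups from MMSET-Ikk2ca (125.1 ± 14.6 CPM, SD, n = 6) to Ccnd1-Ikk2ca (87.7 ± 24.3 CPM, SD, n = 6) overlapped each with the next. Ccnd1-Ikk2ca and the next group, Control(M), did not overlap, and Control(M), Ccnd1 and Control(D) had the 3 lowest means. The highest Ccnd1 library, at 52.1 CPM, was above the lowest of Ikk2ca(D), at 48.0 CPM, and of MMSET, at 48.6 CPM. Levels were scaled together over both cohorts. Abcg1 is also a gene of macrophages. The summed level of 14 macrophage markers was 74.6 to 846.9 CPM (median 111.6) in MMSET and 46.7 to 337.3 CPM (median 67.2) in Ikk2ca(M). It was 45.5 to 73.1 CPM (median 64.0) in MMSET-Ikk2ca, against 108.2 to 151.1 CPM (median 131.3) in Control(M). Single markers went in different directions. Of the 13 tested, 1 rose (C1qb) and 1 fell (Lyz2) in MMSET-Ikk2ca, where 6.91% of all genes were called. In MMSET 1 rose (C1qb) and 1 fell (Spic), and none was called in Ikk2ca(M), with 0.649% of all genes called in each. C1qb had 9.94 to 34.7 CPM in MMSET-Ikk2ca and 10.4 to 61.2 CPM in MMSET, against 2.71 to 5.2 CPM in Control(M). Lyz2 had 0.0373 to 6.01 CPM in MMSET-Ikk2ca, against 48.4 to 109.5 CPM in Control(M). The part of such cells in the Abcg1 result was not tested.

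Abcg1 and Scd2 also varied together from library to library. Over the 36 libraries their log2 CPM had a Pearson correlation of 0.91, and 0.63 once the group means were taken out. The 3 genes most like Abcg1 by that measure were Ifi211, Scd2 and Ly6d (0.91 each), and those most like Scd2 were Abcg1, Ifi211 (0.91) and Degs2 (0.89). The points share depth and groups, so these are descriptions.

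**Figure D2:**
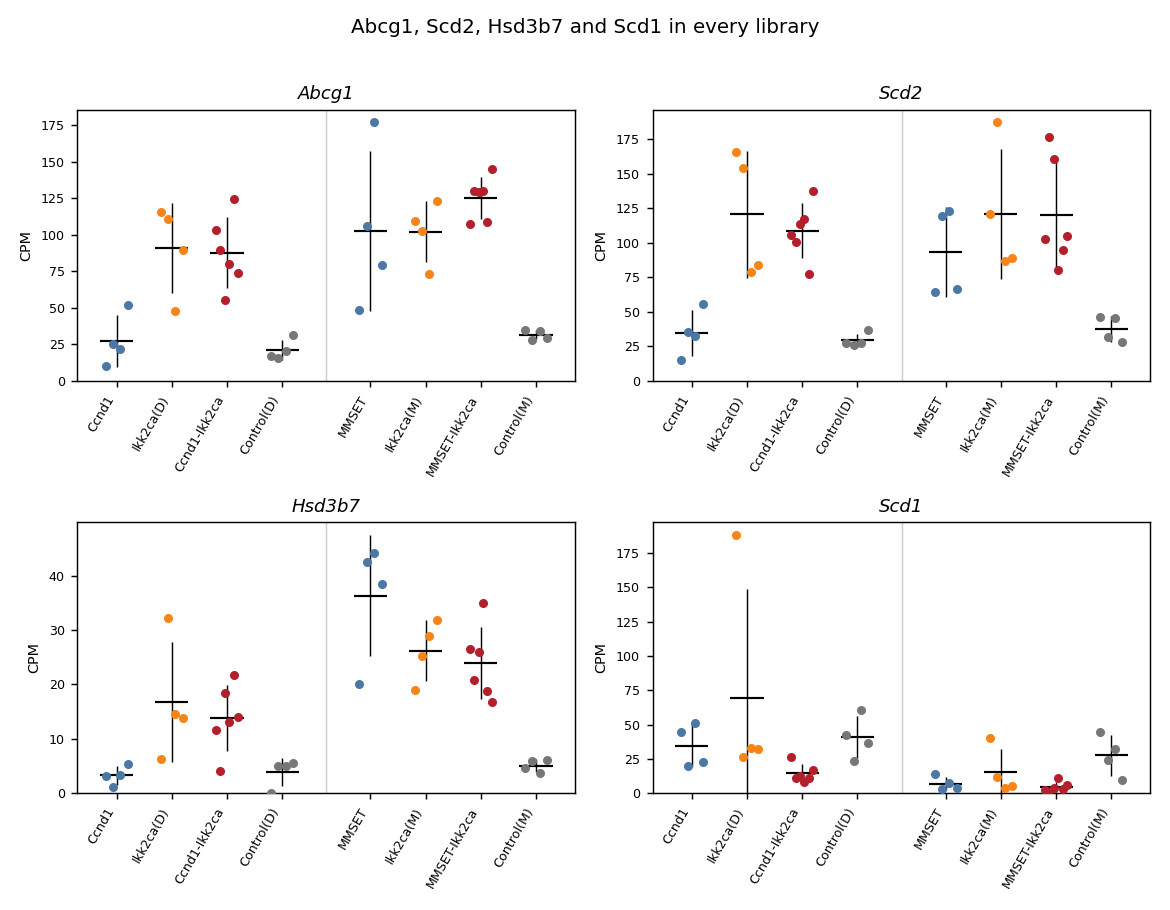
Level in CPM (y axis) of Abcg1, Scd2, Hsd3b7 and Scd1 in each library by group (x axis; cohort D left, cohort M right); points are libraries, horizontal bars means, vertical bars SD, drawn no lower than 0. Abcg1 in Ccnd1-Ikk2ca (55.0 to 124.7 CPM) and Control(D) (15.4 to 31.0 CPM) do not overlap, and Scd1 in Ikk2ca(D) holds 1 library at 188 CPM.

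Abca1, which exports cholesterol to lipid-poor apolipoprotein A-I, showed no call in any comparison. Its mean was 15 ± 2.02 CPM in Ccnd1 (SD, n = 4), 21.9 ± 4.83 CPM in Ikk2ca(D) (n = 4) and 15.8 ± 6.38 CPM in Ccnd1-Ikk2ca (n = 6), against 16.5, 4.52, 6.0 and 5.16 CPM in the 4 Control(D) libraries. Control(D) 1 lay apart from its group. The log2 fold change was 1.44 (SE 0.386, adjusted p = 0.11) in Ikk2ca(D) and 0.97 (SE 0.357, adjusted p = 0.086) in Ccnd1-Ikk2ca; without Control(D) 1 these were 2.07 (adjusted p = 0.0167) and 1.60 (adjusted p = 0.00606), and DESeq2 called the Ikk2ca(D) change with all libraries. In cohort M Abca1 had 27.3, 26.4, 33.2 and 39.7 CPM in MMSET, above the 25.3, 16, 11.3 and 12.6 CPM in Control(M), yet the change of 0.95 (SE 0.308) did not pass (adjusted p = 0.185).

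Pltp, which encodes the phospholipid transfer protein that remodels lipoproteins, fell in Ccnd1-Ikk2ca. Its reads were 0, 1, 0, 0, 0 and 0 in the 6 Ccnd1-Ikk2ca libraries, against 530, 436, 320 and 79 in Control(D). Ikk2ca(D) held 65, 86, 169 and 177 reads, and Ccnd1 231, 778, 334 and 37. No Ccnd1-Ikk2ca library overlapped any library of those 3 groups. As 1 read is left, the summed level was 2359 times lower than in Control(D), with a 95% counting interval of 423 to 93230, 785 times lower than in Ikk2ca(D) (140 to 31071) and 2634 times lower than in Ccnd1 (472 to 104107). The intervals cover counting error only, since amplified copies are not independent molecules.

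edgeR's adjusted p for Pltp was 1.27e-05 in Ccnd1-Ikk2ca against Control(D). Against Ikk2ca(D), where 0.424% of all genes and 1 member were called, it was 0.000167, and against Ccnd1, where 6.2% of all genes and 3 members (Abcg1, Scd2 and Pltp) were called, 1.24e-05. The fitted folds depend on the prior count and are not given here. The departure from adding the single effects (the log2 effect of both transgenes less the sum of the 2 single effects) was also called, with 0.0261% of all genes and 1 member passing (adjusted p = 0.0124), but the p was 0.071 without Control(D) 2 and 0.056 without Ccnd1-Ikk2ca 2. In cohort M the gene had 0 to 120 reads in MMSET-Ikk2ca, 11 to 289 in MMSET, 0 to 98 in Ikk2ca(M) and 33 to 314 in Control(M), and was not called.

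Pltp overlaps Ctsa on the opposite strand, with 128.8 and 2891.2 mean reads for Pltp and Ctsa, and strand was not used in the counting, so reads of the 2 genes cannot be told apart where they overlap. Pltp is also a gene of macrophages. Of 13 macrophage markers tested, 1 (Adgre1) fell in Ccnd1-Ikk2ca against Control(D), where 11.1% of all genes were called. The summed level of 14 such markers was 34.6 to 130.8 CPM in Ccnd1-Ikk2ca and 110.2 to 180.5 CPM in Control(D). Adgre1 had at most 0.0127 CPM in Ccnd1-Ikk2ca, against 0 to 7.21 CPM in Control(D), while Cd68 had 22.3 to 55.3 CPM in Ccnd1-Ikk2ca, against 23.1 to 31.4 CPM, and Mrc1 a median of 3.95 CPM, against 3.75 CPM. Cd14 and Marco had 0 reads in all 6 Ccnd1-Ikk2ca libraries, but were at or near 0 in Control(D) too, at most 0.704 and 0.0154 CPM. The part of such cells was not tested. Of the 7 B cell markers 4 fell in the same comparison, to be read against the same share of all genes. The summed level of these markers was 31.6 to 53.3 CPM in Ccnd1-Ikk2ca, against 119.1 to 212.2 CPM in Control(D), and their part was not tested either. The genes most like Pltp over the libraries were Smpdl3a (Pearson 0.84), Nelfa (0.81) and Alcam (0.80).

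**Figure D3:**
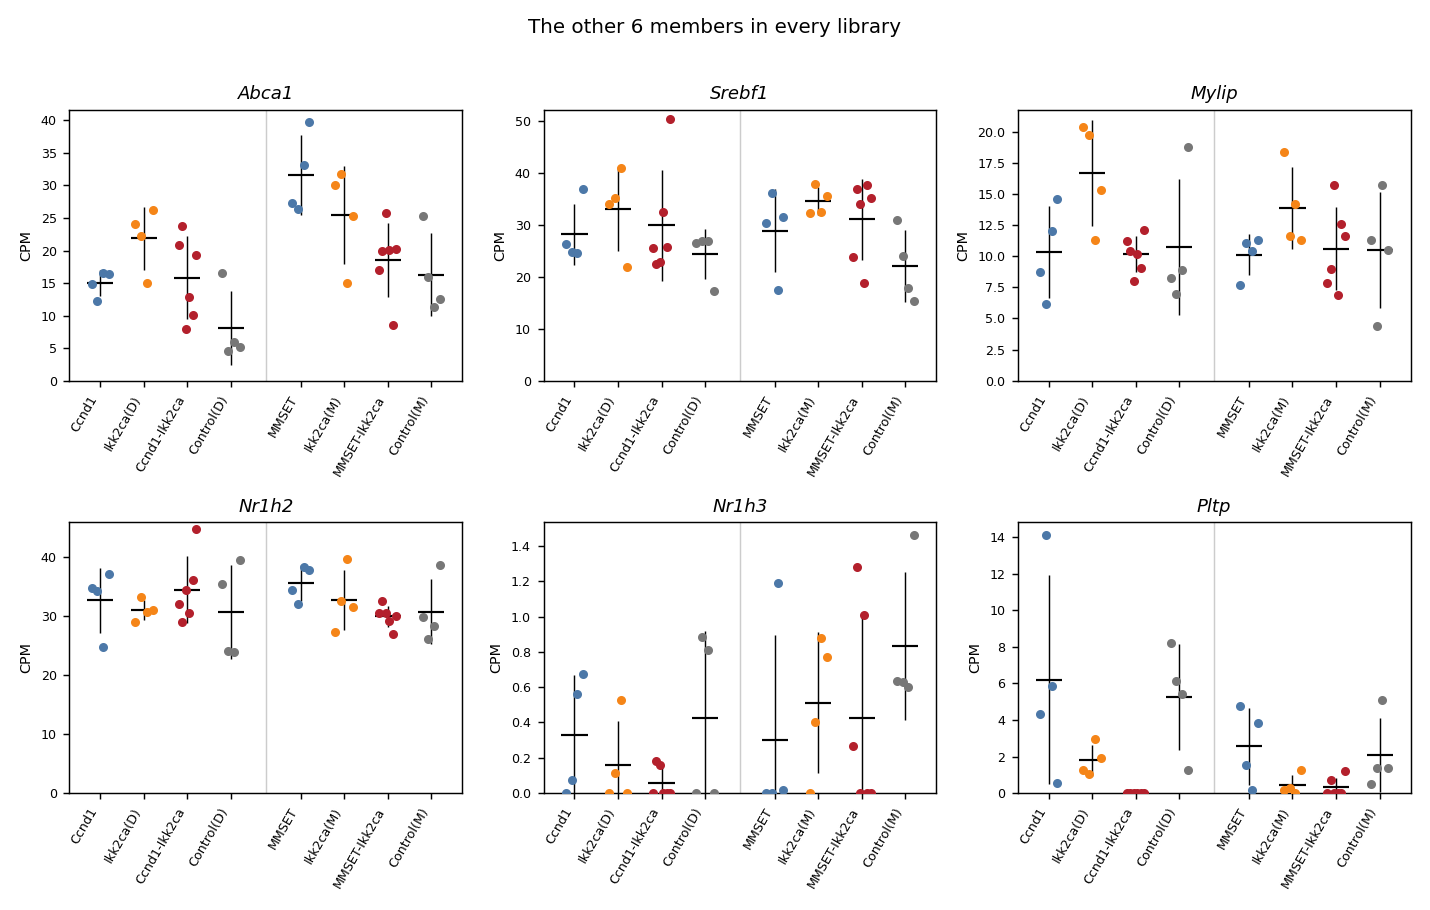
Level in CPM (y axis) of the other 6 members in each library by group (x axis; cohort D left, cohort M right); points are libraries, horizontal bars means, vertical bars SD, drawn no lower than 0. Nr1h2 runs from 24.0 to 44.8 CPM in all groups, and Pltp in Ccnd1-Ikk2ca is at 0 to 0.013 CPM.

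Scd2, which encodes a stearoyl-CoA desaturase that makes monounsaturated fatty acids, rose with Ikk2ca in both cohorts. It had 15.1, 35.0, 32.5 and 55.5 CPM in Ccnd1 and 166.0, 154.2, 78.5 and 83.7 CPM in Ikk2ca(D). It had 77.6 to 137.4 CPM (median 109.5) in Ccnd1-Ikk2ca, against 27.2, 25.9, 27.0 and 36.6 CPM in Control(D). The Ikk2ca groups did not overlap Control(D), whereas Ccnd1 did. The log2 fold change was 2.04 (SE 0.312, adjusted p = 0.00449) in Ikk2ca(D) and 1.89 (SE 0.295, adjusted p = 0.000578) in Ccnd1-Ikk2ca; with Xist as a covariate that of Ikk2ca(D) was 1.86 with an adjusted p of 0.0656.

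In cohort M Scd2 had 64.0, 119.5, 123.0 and 66.3 CPM in MMSET and 120.7, 187.4, 86.7 and 89.1 CPM in Ikk2ca(M). It had 80.3 to 176.3 CPM (median 104.0) in MMSET-Ikk2ca, against 46.1, 31.4, 45.3 and 28.1 CPM in Control(M). All transgenic libraries stood above Control(M). The log2 fold change was 1.67 (SE 0.306, adjusted p = 0.0118) in Ikk2ca(M), where it was 0.0525 without Ikk2ca(M) 2, and 1.66 (SE 0.289, adjusted p = 0.0016) in MMSET-Ikk2ca. For MMSET it was 1.3 (SE 0.303) and just missed, with an adjusted p of 0.0562; DESeq2 called it at 0.00281.

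Scd1, the desaturase known as an LXR and SREBP-1c target in liver, rose in no comparison with a control. It had 44.3, 19.5, 51.1 and 22.7 CPM in Ccnd1 and 188.0, 26.0, 32.8 and 32.1 CPM in Ikk2ca(D). It had 8.45 to 26.5 CPM (median 11.9) in Ccnd1-Ikk2ca, against 42.1, 23.7, 60.4 and 36.5 CPM in Control(D). One Ikk2ca(D) library lay far above the other 3, and the Ccnd1-Ikk2ca range overlapped that of Control(D) at its upper end. The Ccnd1-Ikk2ca change of -1.50 (SE 0.521) did not pass (adjusted p = 0.075); without Ikk2ca(D) 1 the adjusted p was 0.00559, and DESeq2 called it at 0.0251.

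In cohort M Scd1 had 13.8, 2.66, 7.46 and 3.98 CPM in MMSET and 40.1, 12.1, 3.58 and 5.47 CPM in Ikk2ca(M). It had 0.556 to 11.3 CPM (median 3.12) in MMSET-Ikk2ca, against 44.9, 24.0, 31.9 and 9.45 CPM in Control(M). The MMSET-Ikk2ca range overlapped only the lowest Control(M) library. The fall in MMSET-Ikk2ca was -2.66 (SE 0.763, adjusted p = 0.0457), but it held in only 6 of 18 fits without 1 library (those without Control(M) 4, MMSET 1, Ikk2ca(M) 1, 3 or 4, or MMSET-Ikk2ca 4), with an adjusted p up to 0.118. Of 6 B cell markers tested, 4 also fell in MMSET-Ikk2ca against Control(M), where 6.91% of all genes were called. The summed level of 7 such markers was 57.7 to 111.1 CPM in MMSET-Ikk2ca, against 135.9 to 384.1 CPM in Control(M). In MMSET this summed level was 12.5 to 54.6 CPM, and the Scd1 change against Control(M) was -1.98 (SE 0.861), without passing (adjusted p = 0.331). The part of these markers was not tested.

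The 2 desaturase genes lie on opposite strands of chromosome 19 and belong to one family, so Salmon's split of any shared reads between them is an estimate. Per length, the ratio of Scd1 TPM to Scd2 TPM within a library had a median of 0.166 in Ccnd1-Ikk2ca (0.0945 to 0.462), against 1.87 in Control(D) (1.04 to 3.06). It was 0.484 in Ikk2ca(D) and 1.29 in Ccnd1. In cohort M the median was 0.0372 in MMSET-Ikk2ca (0.00358 to 0.16), 0.0773 in MMSET (0.0252 to 0.244) and 0.0984 in Ikk2ca(M) (0.0469 to 0.502), against 0.899 in Control(M) (0.382 to 1.38). The double transgenic groups and MMSET did not overlap their controls.

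**Figure D4:**
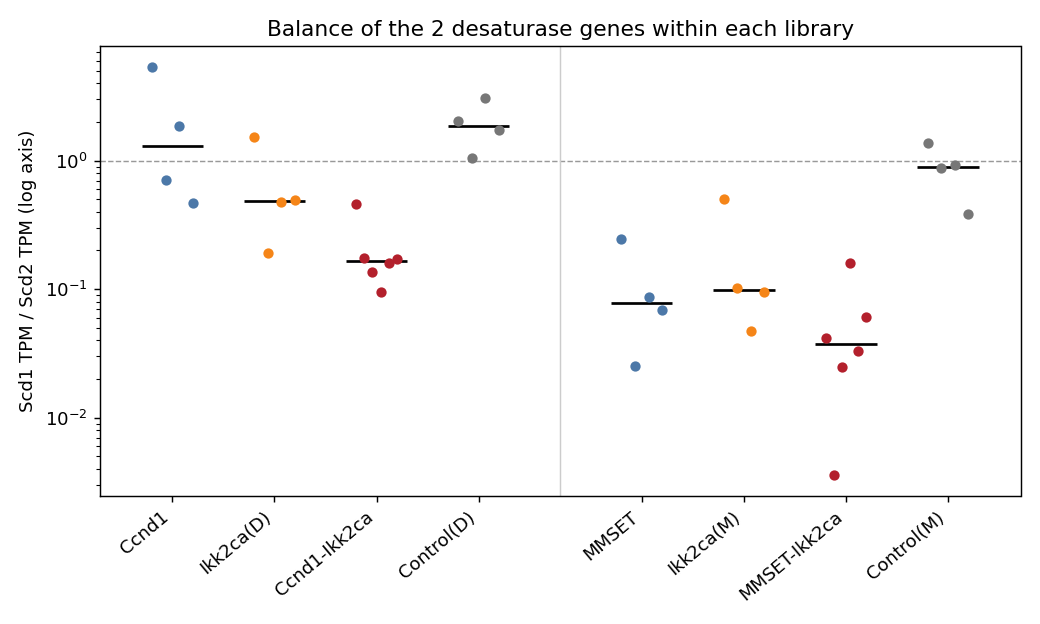
Ratio of Scd1 TPM to Scd2 TPM in each library (y axis, log scale) by group (x axis; cohort D left, cohort M right); points are libraries and bars medians, and the dashed line marks equal TPM. All 6 Ccnd1-Ikk2ca libraries lie at 0.0945 to 0.462 and all 4 Control(D) libraries at 1.04 to 3.06.

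Hsd3b7, which encodes an enzyme of bile acid synthesis that acts on oxysterols, rose in all 3 transgenic groups of cohort M. It had 20.0, 42.5, 44.2 and 38.5 CPM in MMSET and 18.9, 25.3, 28.9 and 31.8 CPM in Ikk2ca(M). It had 16.7 to 34.9 CPM (median 23.4) in MMSET-Ikk2ca, against 4.55, 5.92, 3.66 and 6.1 CPM in Control(M). No transgenic library overlapped Control(M). The log2 fold changes were 2.83 (SE 0.284, adjusted p = 2.87e-05) in MMSET, 2.36 (SE 0.279, adjusted p = 0.000278) in Ikk2ca(M) and 2.24 (SE 0.264, adjusted p = 5.45e-05) in MMSET-Ikk2ca.

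Set against the single transgenes, Hsd3b7 in MMSET-Ikk2ca differed by -0.13 (SE 0.241, adjusted p = 0.94) against Ikk2ca(M) and by -0.60 (SE 0.239, adjusted p = 0.255) against MMSET, on the log2 scale. The departure from adding the single log2 effects was -2.96 (SE 0.362, adjusted p = 0.0019), the one call among the 10 in a comparison that called 0.0973% of all genes. Abcg1 departed by -1.40 (SE 0.356) and Scd2 by -1.31 (SE 0.403), without passing (adjusted p = 0.137 and 0.232); DESeq2 called Abcg1. Against Ikk2ca(M), where 0.96% of all genes were called, and against MMSET, where 1.58% were, edgeR called 0 members in MMSET-Ikk2ca, with 1 and 2 at an unadjusted p under 0.05, and DESeq2 called 0 in both.

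In cohort D Hsd3b7 had 3.2, 1.14, 3.33 and 5.38 CPM in Ccnd1 and 6.29, 32.2, 14.6 and 13.9 CPM in Ikk2ca(D). It had 4.15 to 21.7 CPM (median 13.5) in Ccnd1-Ikk2ca, against 0, 4.94, 4.94 and 5.58 CPM in Control(D). Every Ikk2ca(D) library was above Control(D), and only the lowest Ccnd1-Ikk2ca library was within its range. The changes of 2.12 (SE 0.91) and 1.84 (SE 0.854) did not pass (adjusted p = 0.32 and 0.19). Of its summed reads 72.5% were assigned to 1 coding transcript, and most of the rest to transcripts with a retained intron. The genes most like Hsd3b7 were Cul9 (Pearson 0.84), Elmo3 (0.83) and Zfp467 (0.80).

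Srebf1, which encodes the SREBP-1 transcription factors of fatty acid synthesis, ranged from 15.4 to 50.4 CPM. In cohort D the Ccnd1 libraries averaged 28.3 CPM, the Ikk2ca(D) libraries 33.1 CPM and the Ccnd1-Ikk2ca libraries 29.9 CPM, against 24.5 CPM for Control(D). In cohort M the MMSET libraries averaged 29.0 CPM, the Ikk2ca(M) libraries 34.6 CPM and the MMSET-Ikk2ca libraries 31.1 CPM, against 22.1 CPM for Control(M). The 4 Ikk2ca(M) libraries, at 32.4 to 37.9 CPM, lay above Control(M), at 15.4 to 30.9 CPM, but the change of 0.64 (SE 0.25) did not pass (adjusted p = 0.3). Mylip averaged 10.1 to 16.7 CPM over the groups, with its highest mean in Ikk2ca(D), and was not called in any comparison.

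Effects against control were compared between the 2 cohorts by taking each cohort's own control out. Between the double groups this sets Ccnd1 with Ikk2ca against MMSET with Ikk2ca, so it does not compare effects of Ikk2ca. For the double transgenic groups, where 0.175% of all genes were called, edgeR called 0 of 10 members, 1 (Pltp) had an unadjusted p under 0.05, and DESeq2 called 1 (Pltp). For Ikk2ca alone edgeR called 0% of all genes, with 1079 at an unadjusted p under 0.05 and 268 called by DESeq2, and 0 members by either tool. The Abcg1 effect differed by 0.08 (SE 0.442) between the double groups and by 0.43 (SE 0.485) between the Ikk2ca groups, and the Scd2 effect by 0.23 (SE 0.404) and 0.37 (SE 0.443). Hsd3b7, called against control in cohort M only, was not called in either of these comparisons between cohorts by either tool. A p that misses the threshold does not show that the effects are alike.

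The other genes of the pathway came from lists by role. Of 11 other LXR targets tested, 0 were called in Ccnd1, Ikk2ca(D), MMSET, Ikk2ca(M) or MMSET-Ikk2ca against control by edgeR. At an unadjusted p under 0.05 edgeR gave 0, 0, 3, 1 and 5 of them in these comparisons, and DESeq2 called 0, 0, 1, 1 and 4, the 4 in MMSET-Ikk2ca being Apoe, Arl4c, Npc1 and Npc2. In Ccnd1-Ikk2ca, where 11.1% of all genes were called, 1 rose and 2 fell, and the counts of the lists below for that comparison are to be read against the same share. The log2 fold change was 0.66 (SE 0.136, adjusted p = 0.00467) for Npc2, which encodes a lysosomal cholesterol carrier, -2.18 (SE 0.338, adjusted p = 0.000573) for Smpdl3a, a phosphodiesterase, and -3.16 (SE 0.813, adjusted p = 0.0226) for Apoe, a lipoprotein component. Smpdl3a had 2.38 to 9.63 CPM in Ccnd1-Ikk2ca, against 25.4 to 40.9 CPM in Control(D), with no overlap. Apoe is also abundant in macrophages, whose markers are given above.

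Of 28 genes of cholesterol synthesis and SREBP-2, 3 rose and none fell in MMSET-Ikk2ca against Control(M), where 6.91% of all genes were called. Among them were Fdft1, which encodes squalene synthase (1.11, SE 0.225, adjusted p = 0.00534), and Mvd, an enzyme of the mevalonate pathway (1.27, SE 0.369, adjusted p = 0.0438). Of 20 genes of triglyceride and phospholipid synthesis and lipid droplets, 1 rose and 2 fell in Ccnd1-Ikk2ca against Control(D), and 1 rose and none fell in both Ikk2ca(M) and MMSET-Ikk2ca against Control(M). Plin3, a lipid droplet coat protein, was the one that rose, in Ccnd1-Ikk2ca (0.88, SE 0.215, adjusted p = 0.0133), Ikk2ca(M) (0.67, SE 0.145, adjusted p = 0.0371) and MMSET-Ikk2ca (0.85, SE 0.136, adjusted p = 0.000873). The median log2 fold change of the 28 was 0.33 in MMSET-Ikk2ca, against 0.012 for all genes, and -0.06 in Ccnd1-Ikk2ca, against 0.021.

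Of the fatty acid genes outside the members, 2 of 18 rose and 1 fell in Ccnd1-Ikk2ca against Control(D), and 2 of 17 fell in MMSET-Ikk2ca against Control(M). Degs1, which encodes a desaturase of ceramide synthesis, rose in Ccnd1-Ikk2ca (1.03, SE 0.274, adjusted p = 0.0207), as did Degs2 (adjusted p = 0.0316). Fads2 (adjusted p = 0.0041) and Fads3 (adjusted p = 0.0425), of the fatty acid desaturase family, fell in MMSET-Ikk2ca. Of 29 genes of sterol and lipoprotein transport and storage, 1 rose and 4 fell in Ccnd1-Ikk2ca against Control(D). Among those that fell were Osbpl5, an oxysterol binding protein relative (-1.81, SE 0.319, adjusted p = 0.00161), and Abca2, a lipid transporter of the family of Abca1 (-1.09, SE 0.305, adjusted p = 0.0272). In the same list edgeR called 0 of 30 in MMSET-Ikk2ca against Control(M), with 6 at an unadjusted p under 0.05, and DESeq2 called 2 (Abca7 and Fabp5).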

How the data were processed

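RNA was measured in 36 libraries of sorted mouse plasma cells. The submitters' processing notes name bcl2fastq 2.20.0.422, then Salmon 1.3.0, DESeq2 1.32.0 and the build GRCm38. The authors deposited, per the file headers, Salmon's estimated counts and TPM for 140825 transcripts per library. The expected counts of the 139960 transcripts matched to GENCODE were summed per gene and rounded; strand was not used. No molecular identifiers are described, so copies made by PCR count as reads.

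Gene sums were tested with edgeR 4.0.16 in R 4.3.3 (TMM, filterByExpr, robust quasi-likelihood test, two-sided), with Benjamini-Hochberg adjustment over all genes of a fit: 15323 in cohort D, 15416 in cohort M and 17116 over both. Levels are CPM scaled over 36 libraries, and TPM sums where genes are compared with each other. The test was tried on simulated data. Alternatives were DESeq2 1.42.0, its size factors in edgeR, immunoglobulin genes left out, no filter on low counts, Xist as a covariate, the replicate number as a block and each library left out.

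The members and gene lists were chosen with earlier results of these data known. Named were all 10 members, up to 4 called genes per list and comparison, and the 3 genes of average log2 CPM of at least 3 most correlated with a member. Cell type lists are reported where their markers bear on a member. Python 3.11.15, pandas 2.3.3, numpy 2.4.6 and matplotlib 3.10.9 were used. The proteins of the members were not analysed here, and some genes of the lists are not reported here.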

Additional observations from a re-analysis of the deposited data

Results flagged for a closer look

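Of 80 sets of member levels, 1 gene in 1 group each, 11 held a library far from the rest of its group. The critical values used are set so that chance gives about 1 in 20 such sets where values are normally distributed, which the levels of Pltp and Nr1h3, near 0, are not. Control(D) supplied 5 of them: Abca1 at 16.5 CPM (highest) and Hsd3b7 at 0 CPM (lowest) in replicate 1, and Scd2 at 36.6 CPM (highest), Srebf1 at 17.3 CPM (lowest) and Mylip at 18.8 CPM (highest) in replicate 4. Scd1 was at 188 CPM in Ikk2ca(D) 1, the highest of that group. Srebf1 was highest at 36.9 CPM in Ccnd1 4 and at 50.4 CPM in Ccnd1-Ikk2ca 6. Nr1h3 was highest at 1.19 CPM in MMSET 3 and at 1.46 CPM in Control(M) 4. Pltp was at 0.013 CPM in Ccnd1-Ikk2ca 2, from its 1 read.

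For 2 genes the effect of a transgene differed in the presence of the other by edgeR's test of the interaction. The fitted value for Pltp in Ccnd1-Ikk2ca was -9.04 on the log2 scale (adjusted p = 0.0124) and depends on the prior count, since 1 read was left in that group. For Hsd3b7 in MMSET-Ikk2ca it was -2.96 (adjusted p = 0.0019).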

How the results depend on the processing

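Of the 140 log2 fold changes of members, 44 changed sign under at least 1 alternative, and none of these was called. Of the values given in the report, Hsd3b7 in MMSET-Ikk2ca against Ikk2ca(M) changed sign with the replicate block (0.07). With each library left out, Ccnd1 against Control(D) ranged from -0.14 to 0.65 for Abcg1 and from -0.07 to 0.49 for Scd2, both lowest without Ccnd1 4. Nr1h2 in MMSET-Ikk2ca against Control(M) ranged from -0.1 to 0.09, above 0 without Control(M) 4. The Abcg1 difference between the double groups ranged from -0.05 to 0.33, below 0 without Control(D) 1, Control(D) 2 or Ccnd1-Ikk2ca 5. Of the 10 members, Ikk2ca(D) against Control(D) called 2, but 1 with no low-count filter and 0 with Xist as a covariate. DESeq2 called 2 and not 1 in Ccnd1-Ikk2ca against Ikk2ca(D), 2 and not 1 for non-additivity in MMSET-Ikk2ca, and 1 and not 0 for the difference between the double groups. With the replicate block, the non-additivity in Ccnd1-Ikk2ca called 0, not 1 (Pltp, adjusted p = 0.0511), Scd1 in MMSET-Ikk2ca was lost (adjusted p = 0.166), and the calls were 4 in Ccnd1-Ikk2ca and 3 in MMSET against control. Pairing by number was not seen, though a weak one is not excluded: correlations of same-numbered libraries, with group means taken out, ran from -0.03 to 0.1. The cause of these changes was not tested.

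With each library left out, members called ranged from 1 to 2 in Ikk2ca(D) against Control(D), 3 to 4 in Ccnd1-Ikk2ca against Control(D), 2 to 4 in Ccnd1-Ikk2ca against Ccnd1, 0 to 1 for non-additivity in Ccnd1-Ikk2ca, 2 to 3 in MMSET and in Ikk2ca(M), 3 to 4 in MMSET-Ikk2ca and 1 to 2 for non-additivity in MMSET-Ikk2ca. The call of Abcg1 against Ccnd1 had an adjusted p of 0.0503 without Ccnd1 3. Nr1h3 and Pltp, with few reads, are limited by depth.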
